A study of Mus musculus with 14 samples.

Results

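The genes of the cytosolic ribosomal proteins were followed across whole mouse ears painted with croton oil or vehicle in 2 mouse genotypes that lack Langerhans cells. They were taken by name from the deposited table of TPM (transcript abundance scaled to the same total in every sample): every gene called Rpl or Rps followed by a number and at most the letter a or x, together with Rplp0, Rplp1, Rplp2 and Rpsa. The rule found 76 of the 24035 genes, of which 46 encode proteins of the large (60S) subunit and 30 proteins of the small (40S) subunit. Of these, 75 were among the 14693 genes that reached 1 TPM in no fewer than 3 samples, and these were tested. Rpl26 was below that level. Rpl30, the least abundant of the genes tested, had at least 2.66 TPM in every sample.

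Ribosomal proteins assemble with ribosomal RNA into the subunits that translate messenger RNA in every cell, and their messages are among the most abundant of a tissue. Most of their messages begin with a C followed by an unbroken run of pyrimidines, the 5′ terminal oligopyrimidine (TOP) motif. Through this motif the growth-sensing kinase complex mTORC1 and the cap-binding protein LARP1 control how well these messages are translated and how stable they are.

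The series compared ears of LC-DTA mice, in which Langerhans cells, epidermal antigen-presenting cells, are missing long term, with ears of LC-DTR mice, in which they had been removed by DT given 3 days earlier. Both ear sides were painted with 20 µl of 1% croton oil, a skin irritant, in 4 parts acetone to 1 part olive oil, or with that solvent alone as the vehicle, for 6 h. The 14 samples were 4 LC-DTA ears with croton oil, 3 LC-DTA ears with vehicle, 4 LC-DTR ears with croton oil and 3 LC-DTR ears with vehicle. Every group therefore lacked Langerhans cells by design, and mice with intact Langerhans cells were not analysed here. The promoters behind the transgenes and the age of the mice were not given in the sources used here. The labels do not say that the samples came from separate animals, so p-values measure the spread between these samples, which may be technical. The values are TPM without read counts, so the depth behind them is unknown.

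The letters at the start of the messages are shown here because they define the family's shared motif. RefSeq's promoter table (build GRCm38.p6) held 56 of the 76 genes. A C at the annotated start followed by at least 4 bases that are each C or T stood at the start of 13 of these 56 genes (23.2%), against 3.01% of the 27025 genes in the table and 2.91% of the 10742 other genes tested. With a shift of up to 5 bases allowed it was found in 27 genes (48.2%), against 21.2% of all genes in the table and 23.8% of the other genes tested. In the lines below, which run 5′ to 3′ from 10 bases before the annotated start through the next 20, capitals mark the run of pyrimidines that begins at the start.
Rpl35a, at chr16:33056472-33056501 on the plus strand: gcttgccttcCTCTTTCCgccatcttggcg
Rpl28, at chr7:4792955-4792984 on the plus strand: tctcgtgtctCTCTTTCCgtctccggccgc
Rps6, at chr4:86857348-86857377 on the minus strand: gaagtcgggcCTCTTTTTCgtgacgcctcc
Rps10, at chr17:27635225-27635254 on the minus strand: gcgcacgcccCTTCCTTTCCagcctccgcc
Rps18, at chr17:33955646-33955675 on the minus strand: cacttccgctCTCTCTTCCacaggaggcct
Rpl15, at chr14:18270967-18270996 on the minus strand: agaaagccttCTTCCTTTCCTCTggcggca
Rps27, at chr3:90213629-90213658 on the minus strand: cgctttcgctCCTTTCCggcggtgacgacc

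These genes were chosen to show like starts beside unlike values. Rpl35a and Rpl28 fell under croton oil in LC-DTA, Rps18 and Rpl15 were not called there, and Rps27 was among the few members listed at low TPM. Directly after its run of pyrimidines Rpl35a carries gccatctt, which is the letters GCCATCTT of a YY1 site. On either strand (GCCATCTT or AAGATGGC) they occur within 250 bases before and 50 bases after the start in 5 of the 56 genes (8.93%), against 3.19% of all genes in the table and 4.73% of the other genes tested. The letters CCGGAAGT of an ETS site, or ACTTCCGG on the other strand, occur there in 11 genes (19.6%), against 4.31% of all genes in the table and 8.06% of the other genes tested. Such a match describes the sequence and is not evidence of a bound factor.

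Whole-ear tissue markers were present in every group, with keratinocyte genes summed over 12 markers at 30059 to 50127 TPM and fibroblast genes over 10 markers at 2375 to 9460 TPM. Cd207, the defining Langerhans cell marker, averaged 0.53, 0.29, 1.18 and 0.26 TPM in LC-DTA croton oil, LC-DTA vehicle, LC-DTR croton oil and LC-DTR vehicle ears. On the leading principal component of all genes tested (50.5% of the variance) LC-DTR croton oil samples 2 and 3 scored 5.26 and 8.06, against 28.5 and 28.6 for samples 1 and 4 of that group. Of the 72 members over 20 TPM, LC-DTA croton oil sample 1 was the highest of its group in 55 and LC-DTR vehicle sample 2 in 53, while LC-DTA vehicle sample 3 was the lowest of its group in 57 and LC-DTR vehicle sample 1 in 50. The median coefficient of variation over these members was 7.21% in LC-DTA croton oil ears, against 3.34% in LC-DTA vehicle ears, and 4.78% in LC-DTR croton oil ears, against 4.80% in LC-DTR vehicle ears.

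The members were among the most abundant messages of the ear: 47 of the 100 genes with the highest mean TPM were members, and 66 of the 76 had a mean above 500 TPM. The stalk protein gene Rplp1 led with a mean of 5398 TPM, followed by its partner Rplp0 (4230 TPM), Rps18 (3350 TPM), Rpl32 (3310 TPM) and Rps4x (3110 TPM). Below the main body stood 6 genes between 178 and 438 TPM, which were Rpl29, Rpl21, Rpl22, Rps15a, Rpl17 and Rpl15. Another 4 were listed under 20 TPM: Rpl34 at 11.1, Rps27 at 6.36, Rpl30 at 3.88 and Rpl26 at 0.0419 TPM. The order of the genes was nearly the same in every pair of groups, with Spearman's rho of 0.981 to 0.992 across the 76 members, which are not independent replicates and share their libraries.

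**Figure D1:**
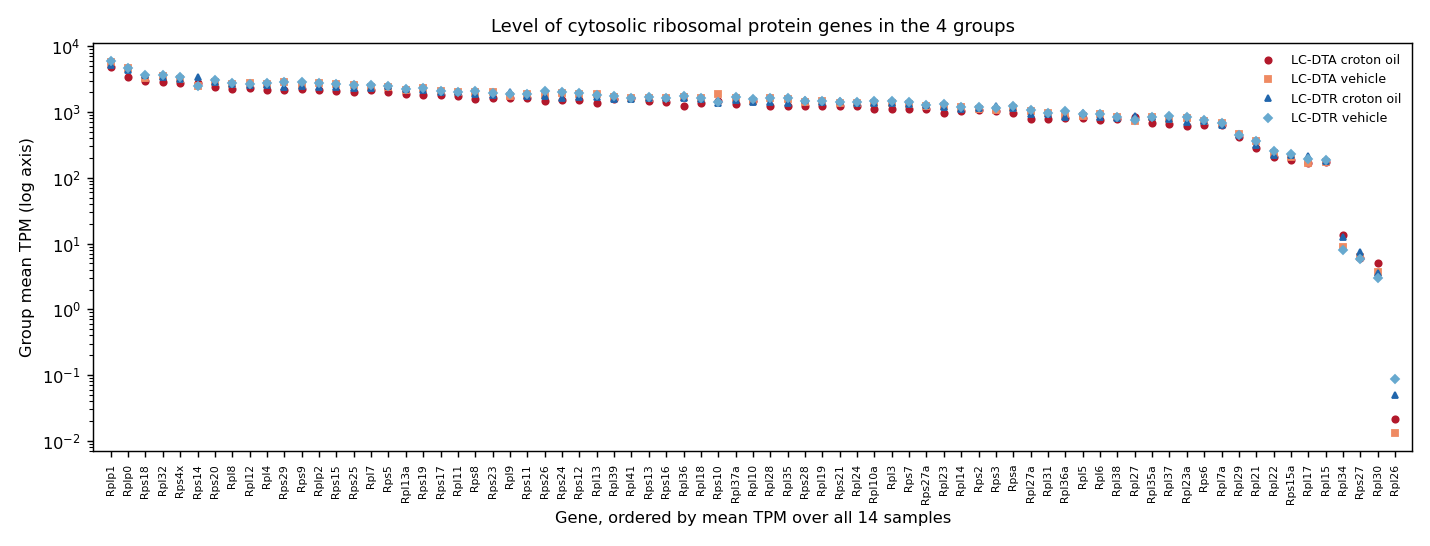
Mean TPM of 75 of the genes in the 4 groups, on a log axis, with genes ordered by their mean over all 14 samples. The 65 genes drawn above 500 TPM form a plateau, and Rpl34, Rps27, Rpl30 and Rpl26 lie far below it in all 4 groups.

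Ribosomal protein genes have many processed pseudogenes, and the sources used here do not say how the authors' counting treated reads shared between copies. Of the 50-base windows of the main annotated transcript, 37.9 to 98.6% occurred in another annotated gene for the 4 lowest members (median 59.5%). For the 66 genes above 500 TPM the share ran from 0 to 93.3% (median 51.4%), so the ranges overlap widely. For Rps27, 98.6% of windows occurred elsewhere, and its near-identical copy Rps27rt was listed at 0 in every sample. The levels of the 4 lowest genes are therefore uncertain. Abundant members are open to the same doubt, since 34 of the 66 had over 50% of windows in another gene. The pseudogene row Rpl14-ps1 was listed at 617 to 803 TPM, beside a mean of 1132 TPM for Rpl14. The part of shared sequence in these levels was not tested.

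Together the 76 genes held 10.04 to 13.2% of all TPM, and the share was lowest in LC-DTA ears with croton oil. There it was 11.24, 10.10, 10.04 and 10.28% of the sample's TPM, against 12.6, 12.5 and 12.1% in LC-DTA ears with vehicle. Every croton oil ear lay below every vehicle ear, with means of 10.4 ± 0.562% and 12.4 ± 0.271% (SD, n = 4 and 3) and a difference of -1.97 percentage points. In LC-DTR ears the share was 11.9, 11.7, 11.8 and 12.4% with croton oil, against 12.3, 13.2 and 12.7% with vehicle. These groups overlapped, because croton oil sample 4 was above vehicle sample 1, and their means were 11.97 ± 0.310% and 12.73 ± 0.471%, a difference of -0.77 points. After median ratio rescaling the members' sum, as a percent of the total before rescaling, differed by -0.29 points in LC-DTR and -1.35 points in LC-DTA. That sum is no longer a share of the sample's own total. The pooled SD of the share between samples of a group, without rescaling, was 0.427 points. Because TPM is a share of a fixed total, a lower share can also come from other messages that rose, and in whole tissue fewer cells of a type and less RNA per cell cannot be told apart.

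**Figure D2:**
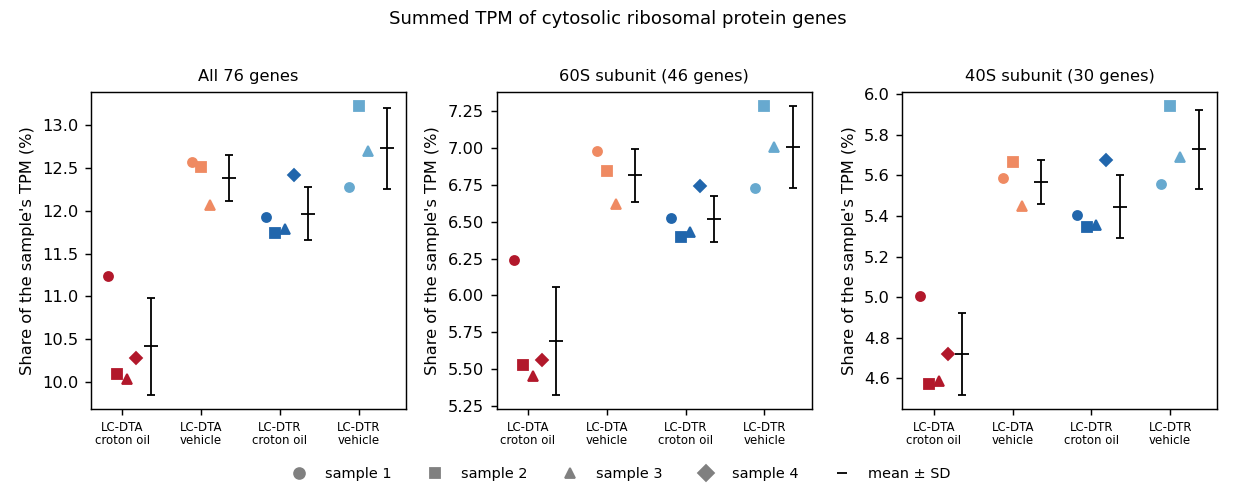
Share of each sample's TPM held by all 76 genes, by the 46 of the large subunit and by the 30 of the small subunit, with 1 point a sample and bars for mean ± SD (axes do not start at 0). LC-DTA croton oil ears lie below all other ears in each panel, and their sample 1, at 11.2% for all genes, is the highest of that group.

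Both subunits showed the same pattern. The large subunit genes held 5.69 ± 0.365% in LC-DTA croton oil ears and 6.81 ± 0.181% in LC-DTA vehicle ears, and 6.52 ± 0.155% in LC-DTR croton oil ears and 7.002 ± 0.277% in LC-DTR vehicle ears. The small subunit genes held 4.72 ± 0.202%, 5.57 ± 0.110%, 5.45 ± 0.156% and 5.73 ± 0.196% in the same groups. The ratio of large to small subunit TPM was 1.21 ± 0.0299 in LC-DTA croton oil ears and 1.22 ± 0.0224 in LC-DTA vehicle ears, a difference smaller than either SD. In LC-DTR ears it was 1.20 ± 0.00822 with croton oil and 1.22 ± 0.0107 with vehicle, and these groups did not overlap (1.187 to 1.207 with croton oil, 1.2103 to 1.231 with vehicle).

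In LC-DTA ears most ribosomal protein genes were lower with croton oil, each by a modest amount. Genes were compared with limma on log2(TPM + 1), and a gene is called here when its p, adjusted by Benjamini-Hochberg over all 14693 genes, is under 0.05. Of the 75 genes tested, 55 fell and 3 rose, while 58.7% of all genes tested were called in this comparison, 34.5% lower and 24.2% higher. The median log2 difference was -0.24 over the members and -0.09 over all genes tested. In 53 members the 4 croton oil ears were all below the 3 vehicle ears, and in 3 all above, where 36.9% and 26.1% of all genes did so. The fall covered 33 of the 45 large subunit genes tested (median -0.26) and 22 of the 30 small subunit genes (median -0.23).

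The proteins of the stalk, the arm of the large subunit that recruits elongation factors, were among those that fell. Rplp0, the base of the stalk, had 3978, 3274, 3144 and 3359 TPM with croton oil, against 4771, 4654 and 4441 TPM with vehicle in LC-DTA ears. The groups were well apart, and the log2 difference was -0.43 ± 0.0828 (SE; limma, adjusted p = 0.000575). Rplp1, the most abundant member, had 5439, 4508, 4743 and 4899 TPM with croton oil, against 6121, 5892 and 5571 TPM with vehicle. Its croton oil sample 1 came close to the lowest vehicle ear without reaching it, and it fell by 0.26 on the log2 scale (SE 0.083; limma, adjusted p = 0.015).

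The largest fall was that of Rpl13, a protein of the large subunit's surface. Rpl13 had 1569, 1327, 1319 and 1306 TPM with croton oil, against 1920, 1953 and 1843 TPM with vehicle in LC-DTA ears. All 4 croton oil ears were below all vehicle ears, and the log2 difference was -0.47 ± 0.0763 (limma, adjusted p = 0.000163). Rpl36 had 1508, 1101, 1187 and 1164 TPM with croton oil, against 1705, 1692 and 1678 TPM with vehicle. Here too the groups did not overlap, with sample 1 nearest to the vehicle ears (log2 difference -0.46 ± 0.0964; limma, adjusted p = 0.00111). Rpl23a, which lies at the exit of the peptide tunnel, fell by 0.43 on the log2 scale (SE 0.0907; limma, adjusted p = 0.00112). Rpl3, at the peptidyl transferase centre, had 1147, 1096, 1112 and 1122 TPM with croton oil, against 1384, 1396 and 1316 TPM with vehicle. The 4 croton oil ears were close together, sample 1 included, and the log2 difference was -0.29 ± 0.0529 (limma, adjusted p = 0.000437).

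Rpl5 and Rpl11 bind 5S ribosomal RNA together and, outside the ribosome, inhibit the p53 ligase Mdm2. Rpl11 fell by 0.19 on the log2 scale in LC-DTA ears (SE 0.0682; limma, adjusted p = 0.0269). Rpl5 had 763, 808, 807 and 862 TPM with croton oil, against 886, 885 and 828 TPM with vehicle. One croton oil ear was above the lowest vehicle ear, and Rpl5 was not called (log2 difference -0.10 ± 0.0631; limma, adjusted p = 0.197). Rpl22, a protein dispensable for translation but needed in mouse T cell development, stood at 222, 207, 214 and 198 TPM with croton oil, against 242, 247 and 221 TPM with vehicle. The highest croton oil ear was just above the lowest vehicle ear, and the difference of -0.17 ± 0.0686 passed narrowly (limma, adjusted p = 0.0486).

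Of the small subunit genes, Rps29 fell most. It had 2656, 1925, 1970 and 1970 TPM with croton oil, against 2841, 2967 and 2776 TPM with vehicle in LC-DTA ears. Sample 1 was close to the vehicle ears and the other 3 croton oil ears far below them (log2 difference -0.44 ± 0.107; limma, adjusted p = 0.00318). Rps6, the substrate that S6 kinase phosphorylates downstream of mTORC1, had 661, 625, 629 and 647 TPM with croton oil, against 765, 723 and 723 TPM with vehicle. These groups did not overlap, and the difference was -0.20 ± 0.0563 (limma, adjusted p = 0.0072). Rpsa, also known as the laminin receptor precursor, fell by 0.23 (SE 0.0551; limma, adjusted p = 0.00299) and Rps27a, made as a fusion with ubiquitin, by 0.15 on the log2 scale (SE 0.0594; limma, adjusted p = 0.0406). Rps28 had 1241, 1221, 1235 and 1237 TPM with croton oil, against 1427, 1425 and 1417 TPM with vehicle. The samples of each group were close together, and the log2 difference of -0.21 ± 0.0597 passed the test (limma, adjusted p = 0.00906).

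The other 17 genes were not called in LC-DTA ears. They included genes with differences near 0: Rpl41, the shortest ribosomal protein, at -0.01 ± 0.104, and Rpl15 at -0.01 ± 0.0553 on the log2 scale. Rps18 was not called at -0.14 ± 0.0653 (limma, adjusted p = 0.0739).

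The 3 genes that rose in LC-DTA ears with croton oil were Rpl34, Rpl30 and Rpl27, all of the large subunit. Rpl34 had 12.03, 12.05, 14.32 and 15.79 TPM with croton oil, against 8.56, 8.47 and 9.43 TPM with vehicle, with no overlap (log2 difference 0.56 ± 0.11; limma, adjusted p = 0.000677). Rpl30 had 4.99, 4.61, 5.58 and 4.73 TPM with croton oil, against 4.47, 3.27 and 3.38 TPM with vehicle. These groups did not overlap either, though vehicle sample 1 was close to the croton oil ears (0.35 ± 0.118; limma, adjusted p = 0.0201). Both belong to the lowest genes, whose levels are uncertain as stated above. Rpl27, an abundant gene, had 756, 863, 864 and 897 TPM with croton oil, against 751, 699 and 706 TPM with vehicle. Sample 1 was barely above the highest vehicle ear, and the difference of 0.23 ± 0.095 passed at the threshold itself (limma, adjusted p = 0.0497).

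The count of 55 genes lower depended on scaling and on samples. After rescaling each sample by its median ratio over genes, 31 genes were lower, all of them among the 55, with a member median of -0.17 against -0.03 for all genes. With quantile normalization the count was 42, of which 40 were among the 55. Without LC-DTA croton oil samples 3 and 4 it was 32, and without any 1 of the 14 samples 44 to 55. Rpl30 was not called without LC-DTA vehicle sample 2 or 3 or croton oil sample 3 (adjusted p up to 0.0931 in limma), and Rpl27 was not called in 11 of the 14 such fits (up to 0.131).

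In LC-DTR ears few ribosomal protein genes were called. Of the 75, 11 fell and 2 rose with croton oil, while 51.6% of all genes tested were called, 29.5% lower and 22.1% higher. The member median was -0.08 and that of all genes tested -0.06. In 22 members all croton oil ears were below all vehicle ears and in 1 all above, against 27.1% and 20.6% of all genes. Of the 11 genes that fell, 10 also fell in LC-DTA ears: Rps29, Rpl7, Rps26, Rps24, Rps12, Rpl36a, Rpl6, Rpl23a, Rpl21 and Rpl22. The other was Rpl10, named after its values were seen, a protein needed for a late step of large subunit maturation. It had 1434, 1386, 1369 and 1452 TPM with croton oil, against 1578, 1616 and 1608 TPM with vehicle in LC-DTR ears. All croton oil ears were below all vehicle ears (log2 difference -0.18 ± 0.0502; limma, adjusted p = 0.00786), and in LC-DTA ears the difference was -0.01 ± 0.0502 (limma, adjusted p = 0.854).

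Rps24, a small subunit protein whose gene is mutated in some families with Diamond-Blackfan anaemia, had the largest fall in LC-DTR ears. It had 1921, 1555, 1457 and 1642 TPM with croton oil, against 2006, 2018 and 2016 TPM with vehicle. Croton oil sample 1 was close to the vehicle ears and the other 3 well below (log2 difference -0.30 ± 0.0945; limma, adjusted p = 0.0166). Rpl36a had 879, 851, 831 and 825 TPM with croton oil, against 946, 1049 and 1061 TPM with vehicle. Its groups did not overlap (-0.27 ± 0.0701; limma, adjusted p = 0.00623). Rps29, Rpl23a and Rps26 fell by 0.29, 0.26 and 0.25 on the log2 scale (limma, adjusted p = 0.0358, 0.0264 and 0.0441).

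The 2 genes that rose in LC-DTR ears were Rpl34 and Rps14. Rpl34 had 11.12, 11.87, 13.998 and 14.21 TPM with croton oil, against 7.27, 8.57 and 7.73 TPM with vehicle, without overlap (0.64 ± 0.11; limma, adjusted p = 0.000362). Rps14, a small subunit protein whose loss in the human 5q- syndrome impairs red cell formation, had 2420, 3764, 3670 and 3947 TPM with croton oil, against 2412, 2674 and 2473 TPM with vehicle. Croton oil sample 1 was at the level of the vehicle ears and the other 3 far above them (0.43 ± 0.153; limma, adjusted p = 0.0305). In LC-DTA ears Rps14 had 2188, 2898, 2833 and 3151 TPM with croton oil, against 2433, 2570 and 2380 TPM with vehicle, and was not called (0.16 ± 0.153; limma, adjusted p = 0.393).

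**Figure D3:**
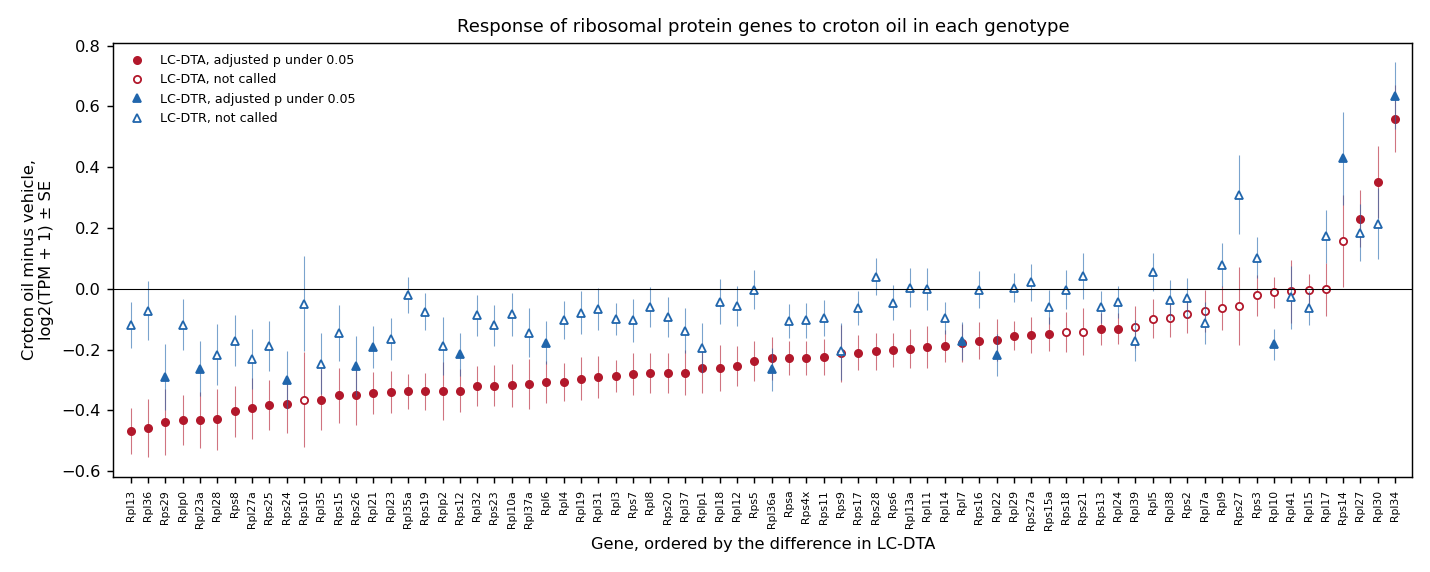
Log2(TPM + 1) difference, croton oil minus vehicle, of 74 of the genes tested, in LC-DTA (circles) and LC-DTR ears (triangles), with bars for SE and filled symbols for adjusted p under 0.05. Of the genes drawn, in LC-DTA 54 lie called below 0 and 3 above it, and in LC-DTR 11 below and 2 above.

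The LC-DTR calls were sensitive to scaling and to single samples. After median ratio rescaling 0 genes were lower by limma, although 8 members had an unadjusted p under 0.05 in either direction, 5 were higher, and the member median was -0.03. With quantile normalization 15 genes were lower, of which 8 were among the 11, and 4 were higher. Without LC-DTR croton oil samples 2 and 3, which stood apart on the leading component, 1 gene was lower. Without single LC-DTR samples the count lower was 4 (vehicle 2 or croton oil 3), 6 (vehicle 1 or croton oil 2) or 7 (vehicle 3). It was 8 without LC-DTR croton oil 4 and 16 without LC-DTR croton oil 1. LC-DTA samples enter through the shared estimate of the spread. The count was 20 without LC-DTA croton oil sample 1, and 9 or 10 without any other LC-DTA sample. The count of genes higher was 1 without LC-DTR vehicle 3 or croton oil 2 or 3, and 5 without LC-DTR croton oil 1. Of the named calls, Rpl34, Rps24 and Rpl36a passed without any 1 sample, while Rps14, Rps29, Rpl23a and Rps26 did not pass in 5, 6, 4 and 9 of the 14 fits (adjusted p up to 0.0877, 0.0901, 0.0675 and 0.138 in limma).

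The responses of the genotypes were compared directly by the difference of the differences, LC-DTA minus LC-DTR. Of the 75 genes, 5 were lower and 0 higher by limma, where 23.1% of all genes tested were called, 12.6% lower and 10.5% higher, and 18 had an unadjusted p under 0.05 in either direction. The member median was -0.16 and that of all genes tested -0.02. Of the 5 genes called, 4 are described here.

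Rpl35a, whose start is shown above, had 712.5, 678, 633 and 663 TPM with croton oil, against 846, 881 and 819 TPM with vehicle in LC-DTA ears. In LC-DTR ears it had 857, 809, 797 and 872.5 TPM with croton oil, against 809, 874 and 854 TPM with vehicle. It was thus lower in every LC-DTA croton oil ear than in any other ear, and the difference of responses was -0.32 ± 0.0819 (limma, adjusted p = 0.0148). The others described were Rpl13 (-0.35; limma, adjusted p = 0.0319), Rps19, the small subunit protein most often mutated in Diamond-Blackfan anaemia (-0.26; adjusted p = 0.0434), and Rps28 (-0.25; adjusted p = 0.0499). Rplp0 and Rpl36 missed the threshold at -0.31 and -0.39 (limma, adjusted p = 0.0672 and 0.0551).

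The count of 5 was 2 after median ratio rescaling and 4 with quantile normalization, of which 3 were among the 5. Without LC-DTA croton oil samples 3 and 4 the count was 1, with 0 of the 5 among them. With single samples left out it was 16 without LC-DTA croton oil sample 1 and 1 without LC-DTA vehicle sample 2. It was 2 without LC-DTR vehicle 1 or 3, LC-DTR croton oil 4, LC-DTA vehicle 1 or LC-DTA croton oil 2, 3 or 4. It was 3 without LC-DTR croton oil 3 or LC-DTA vehicle 3, 4 without LC-DTR vehicle 2 or croton oil 1, and 5 without LC-DTR croton oil 2. Of the 4 genes, Rpl35a passed in all 14 of these fits, while Rpl13 missed in 9, and Rps19 and Rps28 in 12 each (limma, adjusted p up to 0.0764, 0.102 and 0.115).

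**Figure D4:**
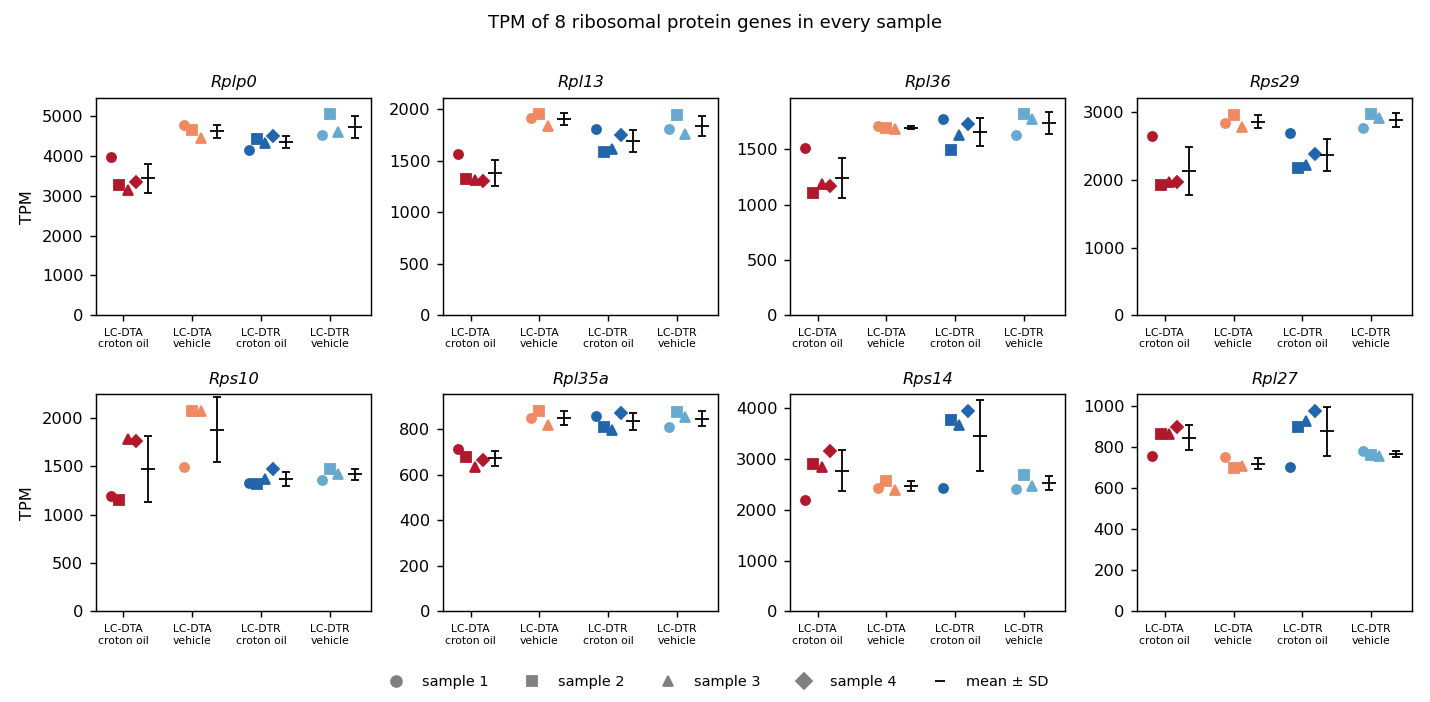
TPM of 8 genes in every sample of the 4 groups, with 1 point a sample, bars for mean ± SD and axes that start at 0. In Rplp0, Rpl13, Rpl36, Rps29 and Rpl35a the LC-DTA croton oil ears are lowest on average, Rps14 and Rpl27 are higher in most croton oil ears, and Rps10 splits within LC-DTA.

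Between genotypes with vehicle no ribosomal protein gene was called. The count was 0 of 75 in either direction by limma, with 4 genes at an unadjusted p under 0.05, where 24.5% of all genes tested were called, 19.1% higher and 5.34% lower in LC-DTA. The member median was -0.03 and that of all genes tested 0.10. All LC-DTA ears were below all LC-DTR ears in 14 members and above in 1, against 11.1% and 31.4% of all genes. In this comparison 78.2% of the called genes were higher in LC-DTA, against 54.1% after median ratio rescaling and 47.7% after quantile normalization. These scalings moved the median of all genes from 0.10 to 0.00103 and -0.01. The member median was then -0.14 and -0.02, with 5 genes and 1 gene lower. Without LC-DTA vehicle sample 1, 1 gene was higher.

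With croton oil the genotypes differed: 45 of the 75 genes were lower and 1, Rpl30, was higher in LC-DTA, where 52.3% of all genes tested were called, 18.0% lower and 34.3% higher. These are the same croton oil ears as in the comparisons above, so the count is not separate evidence. The member median was -0.21 and that of all genes tested 0.09. All LC-DTA ears were below all LC-DTR ears in 33 members and above in 1, against 15.7% and 29.6% of all genes. Of the called genes of the whole table, 65.6% were higher in LC-DTA, and 50.1% after either rescaling. With median ratio rescaling 57 members were lower, the 45 among them, and with quantile normalization 25, of which 23 were among the 45.

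Among the largest differences between croton oil ears were those of Rpl36 (-0.42 ± 0.0892; limma, adjusted p = 0.00142), Rpl17 (-0.35 ± 0.0807; adjusted p = 0.00272), Rplp0 (-0.35 ± 0.0767; adjusted p = 0.002) and Rpl10a (-0.32 ± 0.0657; adjusted p = 0.00128). Rpl17 had 150, 178, 172 and 180 TPM in LC-DTA croton oil ears, against 182, 238, 221 and 227 TPM in LC-DTR croton oil ears. It was not called within either genotype, where its differences from vehicle were -0.00129 ± 0.0872 in LC-DTA and 0.17 ± 0.0872 in LC-DTR. Rps18 showed the same order, with 2971, 2905, 2888 and 3014 TPM in LC-DTA croton oil ears, against 3311, 3736, 3650 and 3791 TPM in LC-DTR croton oil ears. All LC-DTA ears were below all LC-DTR ears (-0.30 ± 0.0605; limma, adjusted p = 0.00112). Rps18 was also lower in LC-DTA with vehicle, at 3285, 3344 and 3126 TPM against 3477, 3781 and 3621 TPM in LC-DTR. Those vehicle ears did not overlap either, but the difference was not called (-0.16 ± 0.0698; limma, adjusted p = 0.118). A difference between croton oil ears thus includes any that was present with vehicle. Rpl30 had 4.99, 4.61, 5.58 and 4.73 TPM in LC-DTA croton oil ears, against 3.36, 3.07, 3.58 and 4.38 TPM in LC-DTR croton oil ears. It was higher in LC-DTA without overlap (0.38 ± 0.109; limma, adjusted p = 0.00948). The call was lost with quantile normalization (adjusted p = 0.219 in limma), which was the highest p among the alternatives other than leaving out 1 sample. It was also lost without LC-DTR croton oil samples 2 and 3 and without LC-DTA croton oil samples 3 and 4. Without LC-DTA croton oil samples 3 and 4 25 members were lower in LC-DTA.

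Rps10, a small subunit protein near the mRNA entry channel, was picked out after its values were seen because it varied widely within each LC-DTA group. It had 1197, 1152, 1781 and 1760 TPM in LC-DTA croton oil ears and 1489, 2077 and 2074 TPM in LC-DTA vehicle ears. In LC-DTR it had 1329, 1316, 1366 and 1477 TPM in croton oil ears and 1362, 1474 and 1421 TPM in vehicle ears. Croton oil samples 1 and 2 of LC-DTA were below every LC-DTR ear, while croton oil samples 3 and 4 and all 3 vehicle ears were above them all. Within LC-DTA the highest levels were those of vehicle samples 2 and 3, while vehicle sample 1 lay below croton oil samples 3 and 4. No comparison called Rps10. The gene lies at chr17:27630418-27636669 (GRCm38, GENCODE M21) on the minus strand. In the labels the numbers of LC-DTA croton oil samples 1 and 2 follow each other (10601 and 10602). Those of samples 3 and 4 do too (10796 and 10797), and the pairs lie apart. The number of LC-DTA vehicle sample 3 (10599) is close to those of croton oil samples 1 and 2, and its Rps10 level was 2074 TPM. Whether the numbering bears on Rps10 was not tested.

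Ribosomal protein messages are short and abundant, so other genes of that kind are set beside them. The median annotated transcript length was 774 bases for the members and 2562.5 bases for all genes tested. Of other genes under 1 kb and above 100 TPM, 331 were tested, and in the LC-DTA response their median was 0.02, with 23.6% called lower. The 190 other genes above 500 TPM had a median of -0.03 and 27.9% called lower, while the 66 members above 500 TPM had a median of -0.27. In the LC-DTR response the medians were -0.04 for those 190 genes and -0.09 for the 66 members.

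Genes with and without the motif at the annotated start both fell in part, and the difference between them was not tested. In the LC-DTA response the 13 genes with the TOP motif at the annotated start had a median of -0.19 and 7 were lower. The 42 tested genes in the promoter table without it there had a median of -0.24 and 31 were lower. Among the genes whose starts are printed above, Rpl28 fell by 0.43 (limma, adjusted p = 0.00248) and Rpl35a by 0.34 on the log2 scale (adjusted p = 0.000248), while Rpl15 differed by -0.01 (adjusted p = 0.94). An annotated start can lie some bases from the start used in the ear, which these data do not show.

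Ribosomal protein genes and paralogs outside the name rule differed among themselves. Of 12 such genes 10 were tested. In the LC-DTA response 3 rose and 2 fell, where 24.2% of all genes tested rose and 34.5% fell. Rps3a1, which encodes a standard small subunit protein, fell by 0.17 on the log2 scale (limma, adjusted p = 0.031). Those that rose were Rpl7l1 (0.80), Rpl22l1 (0.43) and Rpl36al (0.19). Rpl7l1, a Rpl7 paralog that acts in ribosome assembly, averaged 125 TPM in LC-DTA croton oil ears and 71.3 TPM in LC-DTA vehicle ears, and 94.7 and 68.4 TPM in LC-DTR croton oil and vehicle ears. It rose in both genotypes (LC-DTR 0.46; limma, adjusted p = 0.00045), and by more in LC-DTA (difference of responses 0.34; limma, adjusted p = 0.046). Rpl22l1, the paralog of Rpl22, averaged 295 TPM in LC-DTA vehicle ears and 444 TPM in LC-DTR vehicle ears (-0.59; limma, adjusted p = 0.013). In the LC-DTR response 1 of the 10 rose and 0 fell by limma, where 22.1% and 29.5% of all genes tested did.

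The genes of mitochondrial ribosomal proteins, which translate the messages of the mitochondrial genome, moved the other way in LC-DTA ears. Of 76, 36 rose and 5 fell with croton oil (median 0.16), where 24.2% of all genes tested rose and 34.5% fell. Their summed TPM was 4899 to 5316 in LC-DTA croton oil ears and 4466 to 4728 in LC-DTA vehicle ears. Examples are Mrps25 (1.49), Mrpl12 (0.67) and Mrpl17 (0.65), all with croton oil higher. In LC-DTR ears 12 rose and 21 fell, where 22.1% of all genes tested rose and 29.5% fell. The median there was -0.01 (0.05 after median ratio rescaling, with 18 higher and 15 lower, and -0.07 with 8 and 22 after quantile normalization). The difference of responses was higher for 20 and lower for 1 of them, where 10.5% and 12.6% of all genes tested were.

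Factors that carry ribosomal proteins to the nucleus and to assembly also rose. Of 13 chaperones and importers, 10 rose and 0 fell by limma in each genotype, with medians of 0.52 in LC-DTA and 0.33 in LC-DTR. Of all genes tested, 24.2% rose and 34.5% fell in LC-DTA, and 22.1% rose and 29.5% fell in LC-DTR. With quantile normalization 1 of the 13 fell in LC-DTA. Ipo7, an importer of ribosomal proteins, averaged 153 TPM in LC-DTA croton oil ears and 86.3 TPM in LC-DTA vehicle ears (0.82), and 120 and 94.2 TPM in LC-DTR croton oil and vehicle ears (0.34). Heatr3, needed for import of Rpl5, rose by 0.77 in LC-DTA and 0.51 in LC-DTR, and Grwd1, a chaperone of Rpl3, by 0.93 and 0.96.

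**Figure D5:**
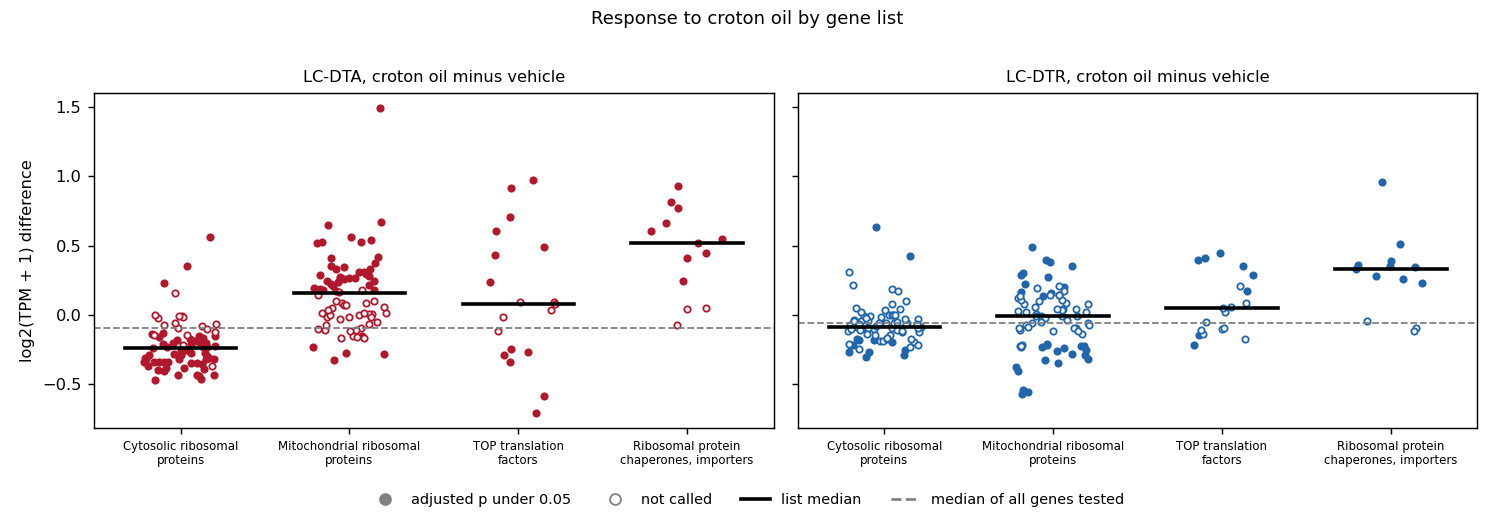
Log2(TPM + 1) differences, croton oil minus vehicle, of the genes of 4 lists in LC-DTA (left) and LC-DTR ears (right), with filled points for adjusted p under 0.05, black lines for list medians and a dashed line for the median of all genes tested. In LC-DTA the cytosolic ribosomal proteins have a median of -0.24, the mitochondrial ones 0.16 and the chaperones and importers 0.52.

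Of 19 translation factors and related genes with TOP messages, 7 rose and 6 fell in LC-DTA (median 0.08), where 24.2% of all genes tested rose and 34.5% fell. In LC-DTR 6 rose and 2 fell (median 0.05), where 22.1% and 29.5% of all genes did. In LC-DTA Eef2, which moves the ribosome along the message, fell by 0.70 and Eif3f by 0.59, while Pabpc1 rose by 0.98 and Npm1 by 0.92. For Eef2 the difference of responses was -0.53 (limma, adjusted p = 0.0034). Rack1 was not found by that name among the deposited genes and is not analysed here.

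Of 26 genes of mTORC1 and translation control, 9 rose and 11 fell in LC-DTA, and 9 rose and 5 fell in LC-DTR, where 58.7% and 51.6% of all genes tested were called in either direction. Sesn1, an inhibitor of mTORC1 under stress, averaged 12.2 TPM in LC-DTA croton oil ears and 41.2 TPM in LC-DTA vehicle ears, and 44.7 and 46.9 TPM in LC-DTR croton oil and vehicle ears. Its log2 difference was -1.68 in LC-DTA and -0.08 in LC-DTR, and the difference of responses was -1.60 (limma, adjusted p = 8.2e-05). Pdcd4, which restrains the helicase eIF4A, fell by 1.02 and 0.67 in LC-DTA and LC-DTR. The cap-binding protein gene Eif4e rose by 0.75 and 0.54. Larp1 rose by 0.33 in LC-DTA and 0.48 in LC-DTR. Eif4ebp1, the repressor of Eif4e, rose by 0.81 in LC-DTR and was not called in LC-DTA at 0.15.

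Other markers were examined in the same contrasts, and their part in the ribosomal protein values was not tested. Of 15 proliferation genes, 6 rose and 0 fell by limma in LC-DTA and 0 rose and 14 fell in LC-DTR, and all 15 were higher in LC-DTA than in LC-DTR croton oil ears. They summed to 499.5 to 557 TPM in LC-DTA croton oil ears, 390 to 434 TPM in LC-DTA vehicle ears, 254 to 272 TPM in LC-DTR croton oil ears and 364 to 533 TPM in LC-DTR vehicle ears. Of 11 neutrophil markers 10 rose in each genotype, while 1 fell in LC-DTA and 1 was not called in LC-DTR. Their sums were 637 to 877 TPM in LC-DTA croton oil ears and 232 to 274 TPM in LC-DTA vehicle ears. In LC-DTR they were 534 to 1155 TPM in croton oil ears and 231 to 321 TPM in vehicle ears. The defining neutrophil markers S100a8, S100a9 and Cxcr2 were above 0 in every sample, and Ly6g was not found by that name. Fibroblast markers were higher in LC-DTA for 9 of 10 genes with vehicle and 8 of 10 with croton oil. Of all genes tested, 19.1% were higher in LC-DTA with vehicle and 34.3% with croton oil. Of 12 keratinocyte markers 4 rose and 5 fell with croton oil in LC-DTA, and 2 rose and 7 fell in LC-DTR. Of 12 skeletal muscle markers 4 fell in LC-DTA and 0 in LC-DTR by limma, and of 9 cartilage markers 4 and 3 fell. For the lists of this paragraph, 24.2% of all genes tested rose and 34.5% fell with croton oil in LC-DTA. In LC-DTR 22.1% rose and 29.5% fell. Of the 4 genes listed for Langerhans cells 3 were tested, since Cd207 was too low. Epcam rose in both genotypes, and the antigen presentation genes Cd74 and H2-Ab1, which other immune cells also express, fell in LC-DTA with croton oil. Cd74 and H2-Ab1 were also higher in LC-DTA than in LC-DTR vehicle ears, by 1.01 and 1.12 on the log2 scale (limma, adjusted p = 0.0152 and 0.00902). The 4 genes summed to 764 to 1043 TPM in LC-DTA croton oil ears and 800 to 1253 TPM in LC-DTA vehicle ears, and to 786 to 1050 TPM in LC-DTR croton oil ears and 501 to 716 TPM in LC-DTR vehicle ears.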

How the data were processed

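Gene expression was measured by mRNA sequencing of whole mouse ear in 14 samples. RNA came from RNeasy columns and went into TruSeq Stranded mRNA libraries, per the labels' protocols. Tools named are cutadapt, HISAT2, Subread and featureCounts, with the build mm10 and no versions, per the submitters' processing notes. The authors deposited 1 table of TPM per gene and sample, and each sample's values sum to the same total. Of 24062 rows 27 were named as dates and were left out (0.124 to 0.145% of TPM), leaving 24035. Samples were grouped by their labels, with 0 sample columns left over.

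Values were transformed to log2(TPM + 1), so a fold change of a low gene is understated. Genes with at least 1 TPM in at least 3 samples were fitted with limma 3.58.1 in R 4.3.3, with 4 group means, a mean-variance trend and 5 comparisons, and p was adjusted by Benjamini-Hochberg over all 14693 genes of a comparison. Summed shares and list medians were described without a test. The fit was tested on simulated data. Transcript lengths and shared windows came from GENCODE M21 and promoter sequences from RefSeq, both on GRCm38, read with Python 3.11.15, pandas 2.3.3 and matplotlib 3.10.9.

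The members, lists, alternatives and tests were chosen with earlier results of these data known. Named were, per comparison, up to 5 called members with the largest positive and negative differences, the 5 most and least abundant members, and Rplp0, Rpsa, Rps6, Rpl3, Rpl5, Rpl11, Rpl22, Rpl41 and Rps27a. From the other lists up to 4 genes with the lowest p per comparison could be named. Alternatives for the fit changed the pseudocount (0.1 or 5), the filter (none or 5 TPM), the scaling (median ratio or quantile) and limma's options (no trend, robust). Others added the replicate number as a block, dropped the groups not compared, or left out samples. For the shares they were other totals and other sets of rows. Rpl10, Rpl28 and Rps10 were named after their values were seen. Some genes are not reported here by name, although the counts, medians and shares hold them.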

Additional observations from a re-analysis of the deposited data

Results flagged for a closer look

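In LC-DTA croton oil ears, sample 1 lay far from the other 3 samples of its group in 5 of the named genes, always above them. The gap to the nearest sample, as a share of the whole range, passed Dixon's critical value for 4 samples. Rps29 was at 2655.7 TPM in sample 1, against 1925 to 1970 TPM in the others. Rpl23a was at 724.4 TPM, against 563 to 570 TPM, and Rps26 at 1787 TPM, against 1350 to 1354 TPM. Rpl13 was at 1569 TPM, against 1306 to 1327 TPM, and Rpl10a at 1267 TPM, against 1044 to 1073 TPM. Rpl26, too low to be tested, was at 0.0846 TPM and listed at 0 in the other 3, where any value above 0 would pass the criterion, so it is not counted with them. In all, 66 groups of 4 samples were examined, of which chance alone passes about 1 in 20, and the genes share their libraries. The cause was not tested.

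In the 4 genes given here the response to croton oil differed between the genotypes by limma's test of the difference itself, LC-DTA minus LC-DTR, on the log2 scale. The differences were -0.350 for Rpl13, -0.317 for Rpl35a, -0.262 for Rps19 and -0.246 for Rps28. In each of them the LC-DTA croton oil ears were all below the LC-DTA vehicle ears, while in LC-DTR none of the 4 was called. Of the 75 members 5 were lower in this test, where 12.6% of all genes tested were. Leaving out each of the 14 samples in turn, Rpl35a was called in every fit, while Rpl13 was not called in 9 and Rps19 and Rps28 in 12 each. Without LC-DTA croton oil samples 3 and 4, 0 of the 5 were called.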

How the results depend on the processing

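Over 20 summary results and their alternatives, 434 of 490 values stayed within the limits set and 56 moved. The limit was the pooled SD between samples for medians and shares, and a set fold change for counts. By these rules a count could not reverse, nor could a median or share smaller than its pooled SD, so reversals are not counted. Many of the medians and shares could not move either. Options of limma left the fitted differences as they were, and so did leaving out samples of groups not compared. The tally is therefore not a measure of how stable the results are. Over 26 calls of named genes, 558 of 674 values stayed past the threshold, 116 did not and 0 reversed. After median ratio rescaling the LC-DTR response had 5 members higher and 0 lower, the LC-DTA response 31 lower, vehicle ears 5 lower in LC-DTA, with a median of -0.14, croton oil ears a median of -0.30, and the difference of responses 2 lower. The members' rescaled sum, as a percent of the total before rescaling, differed by -0.290 points in the LC-DTR response and -1.35 in the LC-DTA response. It differed by -1.25 between vehicle ears and -2.31 between croton oil ears. These sums are not shares of the rescaled totals. With quantile normalization 4 members were higher in the LC-DTR response, 1 was lower between vehicle ears, 25 were lower between croton oil ears (median -0.11), and 1 had a higher difference of responses. With no filter the LC-DTR response had 1 higher and 7 lower, and the difference of responses 2 lower. With a filter of 5 TPM, 0 members were higher between croton oil ears, because Rpl30 did not pass that filter. With only the compared groups in the fit, 1 member was higher in the LC-DTR response. Without LC-DTR croton oil samples 2 and 3, the LC-DTR response had 1 higher and 1 lower, and 0 were higher between croton oil ears. Without LC-DTA croton oil samples 3 and 4, the LC-DTA response had 1 higher and 32 lower, 1 member was higher between vehicle ears, 0 were higher and 25 lower between croton oil ears, and the difference of responses had 1 lower. Except where named, the causes were not tested.

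Without any 1 sample, the LC-DTR response had 1 to 5 higher and 4 to 20 lower, the LC-DTA response 1 to 3 higher and 44 to 55 lower, vehicle ears 0 to 1 higher, croton oil ears 34 to 57 lower, and the difference of responses 1 to 16 lower. The replicate numbers did not pair the samples: same-numbered samples of different groups had correlations of -0.315 to 0.126 in their deviations from group means (median -0.0683, over 0.1 in 2 of 19 pairs). With the replicate number as a block, 52 members were lower in the LC-DTA response, 8 in the LC-DTR response, 42 between croton oil ears, and 3 in the difference of responses. The depth is unknown, and groups of 3 or 4 limit what can be called.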
